A study of Mus musculus with 10 samples.

Results

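The proteasome subunits were followed in mouse embryonic stem (ES) cells with 2 or 3 copies of single autosomes. Members were the genes whose array name was Psma, Psmb, Psmc or Psmd followed by a number, without the immunoproteasome subunits Psmb8, Psmb9 and Psmb10; 36 genes with 44 probes met this rule, of 35080 genes with 55681 probes on the array. WT was the diploid ES line AB1 at passages 18 and 20. The ES lines Ts6, Ts8, Ts11 and Ts15, of the labelled strain 129 S7/SvEvBrd, each carry 3 copies of the chromosome in their name. Ts6 was at passages 9 and 18, Ts8 at 10 and 13, Ts11 at 8 and 11, and Ts15 at 11 and 14. Each group had 2 biological replicates from different passages of its line. All cells were grown on irradiated SNL76/7 feeder cells, which were depleted before RNA extraction by letting them settle. The labels name no parent line for the trisomic lines, so origin, passage and trisomy cannot be told apart in a comparison with WT. Each trisomy is represented by its own line only, so line and trisomy cannot be told apart between the trisomic lines either. The comparisons asked how the complex differed from WT in each trisomic line, and whether subunits encoded on chromosome 6, 8, 11 or 15 stood apart from the rest of the complex in the line trisomic for that chromosome.

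The proteasome degrades proteins that carry ubiquitin chains. Its core particle is a barrel of alpha rings outside and beta rings inside, where Psmb5, Psmb6 and Psmb7 hold the catalytic sites. The regulatory particle that caps it has a base, with the ATPases Psmc1 to Psmc6, which unfold the substrate, and a lid, where Psmd14 removes the ubiquitin. The subunits occupy fixed places in the complex, and the transcription factor Nfe2l1 is known to raise many of their genes together when proteolysis is impaired. Pluripotent cells are known for high proteasome activity. The name of the set is only partly met by its members, since Psma8 is known as a testis-specific alpha subunit, Psmb11 as a thymus-specific beta subunit, and Psmd5, Psmd9 and Psmd10 as chaperones that assemble the base and leave it.

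Values are log2 signals minus the 75th percentile of their array, so 0 is the signal of the 75th percentile. On the 10 arrays, 71.4% to 80.2% of spots were well above background and none was saturated. All 10 markers of ES cells were well above background on every array. So were 10 of 12 markers of fibroblast feeder cells, while Lum was above background on none and Postn on 6 arrays. All 4 endoderm and all 3 neuroectoderm markers were too, as were 2 of 3 mesoderm and 2 of 3 trophectoderm markers. Over the arrays Gata6 ran from -0.17 to 2.32 and Gata4 from -0.41 to 1.78, and the part of such markers in the results was not tested. The summed linear signal of the feeder markers, relative to the 75th percentile, ran from 37.4 to 39.7 for WT, 28.5 to 35.9 for Ts6, 30.9 to 36 for Ts8, 33.4 to 40.2 for Ts11 and 43.1 to 49 for Ts15, and its part in the results below was not tested. The Ts15 arrays were on a second slide, so that slide and trisomy cannot be told apart for Ts15, and on slide 1 each group filled a slide column of its own. Fewer cells of a type and less RNA per cell cannot be told apart in bulk RNA. Groups were compared with limma over 28192 genes, and a gene was called at an adjusted p (Benjamini-Hochberg) under 0.05.

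Of the 36 members, 34 were tested. Psmb11 was not well above background on any array. Psmd11, a lid subunit on chromosome 11, had only 1 probe, and its spot on the array of Ts11 replicate 1 was marked as an outlier by the scanner software. Of the tested subunits, 31 gave signals in the brightest 25% of all genes tested and 18 in the brightest 5%, so the brightest 5% of genes are given below as a comparison beside all genes.

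Chromosome 11 carried 6 members, namely Psmb3, Psmb6, Psmc5, Psmd3, Psmd11 and Psmd12, and chromosome 8 carried Psmd7. No member lay on chromosome 6 or 15. Of these genes, Psmc5, Psmd11 and Psmd12 had probes that cross an intron in mm9, the build of the probe positions, and so match spliced RNA. The probes of these 3 genes are shown in lower case throughout, since no base is singled out. Of them, only the Psmc5 probe and the Psmd12 probe within an exon were the tested ones. The Psmb2 probe, also across an intron, is shown as the one with the lowest value against WT. Whether results depend on the kind of probe was not tested.
Psmc5 probe, chr11:106124192-106124376, plus strand: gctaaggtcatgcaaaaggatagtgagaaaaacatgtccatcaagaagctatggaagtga
Psmd11 probe, chr11:80283406-80283920, plus strand: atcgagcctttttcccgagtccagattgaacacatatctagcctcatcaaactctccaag
Psmd12 probe across an intron, chr11:107347092-107347728, plus strand: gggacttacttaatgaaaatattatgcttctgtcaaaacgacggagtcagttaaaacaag
Psmd12 probe within an exon, chr11:107358963-107359022, plus strand: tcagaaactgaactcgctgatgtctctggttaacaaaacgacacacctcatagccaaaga
Psmb2 probe, chr4:126361456-126364299, plus strand: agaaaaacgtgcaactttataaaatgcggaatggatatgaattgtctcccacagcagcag
Of the 43 probes checked, 12 crossed an intron, taken as a span over 70 bases. The only Psma8 probe was left out of this check.

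Promoters were searched for elements through which subunit genes are known to be regulated. The antioxidant response element core TGACNNNGC, to which Nfe2l1 and Nfe2l2 bind, and the CCAAT box were searched on both strands in windows from 250 bases before to 50 bases after the start (RefSeq, GRCm38.p6), of which 31 belonged to 29 of the 36 members. TGACNNNGC was in 5 of the 31 windows (16.1%), against 12.4% of all 32851 windows. It lay before Psmb5, Psmb6, Psmc6, Psmd9 and Psmd12. CCAAT was in 12 of the 31 windows (38.7%), against 37.4% of all windows, and none held both elements. The 100 bases before the start of 3 core genes are shown with the matches in capitals. Psmb6 and Psmb3 lie on chromosome 11 and Psmb5 on chromosome 14.
Psmb6, chr11:70525257-70525356, plus strand: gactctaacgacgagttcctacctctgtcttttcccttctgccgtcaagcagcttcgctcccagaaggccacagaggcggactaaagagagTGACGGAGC
Psmb5, chr14:54617996-54618095, minus strand: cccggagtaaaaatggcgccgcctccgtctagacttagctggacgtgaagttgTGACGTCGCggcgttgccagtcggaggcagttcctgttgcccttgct
Psmb3, chr11:97703334-97703433, plus strand: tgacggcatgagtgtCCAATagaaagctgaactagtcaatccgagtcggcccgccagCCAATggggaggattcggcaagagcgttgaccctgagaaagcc
The match in Psmb6 ends at the base before the start, and Psmb3 holds a pair of CCAAT boxes in this stretch. The shares in the members were close to those of all promoters, and a match is no evidence of binding.

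The subunit mRNAs differed little between the groups. None of the 34 tested subunits was called in any of the 4 lines against WT by limma, whereas 9.04% of all genes were called for Ts6, 3.53% for Ts8, 8.13% for Ts11 and 7.43% for Ts15. At an unadjusted p under 0.05 there were 3 subunits for Ts6, 5 for Ts8, 3 for Ts11 and 2 for Ts15, or 8.82%, 14.7%, 8.82% and 5.88% of them, beside 24.9%, 24.7%, 25.3% and 24.4% of all genes. The smallest adjusted p of a subunit was 0.089 for Ts6, 0.075 for Ts8, 0.079 for Ts11 and 0.12 for Ts15. For the mean of the 4 lines against WT none was called (3.85% of all genes), and 3 subunits, or 8.82%, had an unadjusted p under 0.05, beside 22.6% of all genes. The F test over the 5 groups called none either (28.7% of all genes), and its smallest adjusted p was 0.072, for Psma2. Other settings called at most 1 subunit in a comparison with WT, as given with the genes below. The median standard error of a subunit's difference from WT was 0.11 (0.16 over all genes), and the median 95% interval, unadjusted, reached 0.26 to either side. Calls needed more than that after adjustment. The standard errors, intervals and p of the comparisons with WT rest on the spread between passages of a line, not between lines. Psma2 in Ts8, at -0.42 ± 0.11 (SE), was not called (limma, adjusted p = 0.075), so changes of that size could be missed with 2 arrays per group.

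The median change of the 34 subunits from WT was -0.05 for Ts6, -0.11 for Ts8, -0.08 for Ts11 and 0.01 for Ts15; in Ts11 it was 0.05 with the deposited table, 0.02 when arrays were scaled to the brightest 5% of genes and -0.16 with passage as a covariate, and in Ts15 it ran from -0.09 to 0.05 over 16 alternatives. It was -0.01 in Ts6 without Ts6 replicate 2, and -0.07 in Ts8 and -0.01 in Ts11 without WT replicate 1. The brightest 5% of genes had medians of -0.05, -0.08, -0.11 and 0.09 in the same order, and all genes tested lay between -0.01 and 0.04. In Ts8, 27 of 34 subunits had values below 0 (20.6% above 0, beside 29.2% of the brightest 5% and 54.7% of all genes). In Ts11, 22 of 34 did (35.3% above 0, beside 23.9% of the brightest 5% and 50.4% of all genes). In Ts8, 18 subunits had both arrays below both WT arrays (52.9% of them, 24.5% of all genes), and in Ts11 14 did (41.2%, with 26.9% of all genes). The same count was 8 for Ts6 (30.4% of all genes) and 7 for Ts15 (30%). Subunits with both arrays above both WT arrays numbered 1 for Ts6 (27.1% of all genes), 4 for Ts8 (31.1%), 5 for Ts11 (26.8%) and 8 for Ts15 (27.2%). These comparisons share the WT arrays, and the counts by array were not made for the brightest 5% of genes. The plot of subunits by array shows the same pattern, a generally blue Ts8 and a few genes that depart from WT in most lines.

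**Figure D1:**
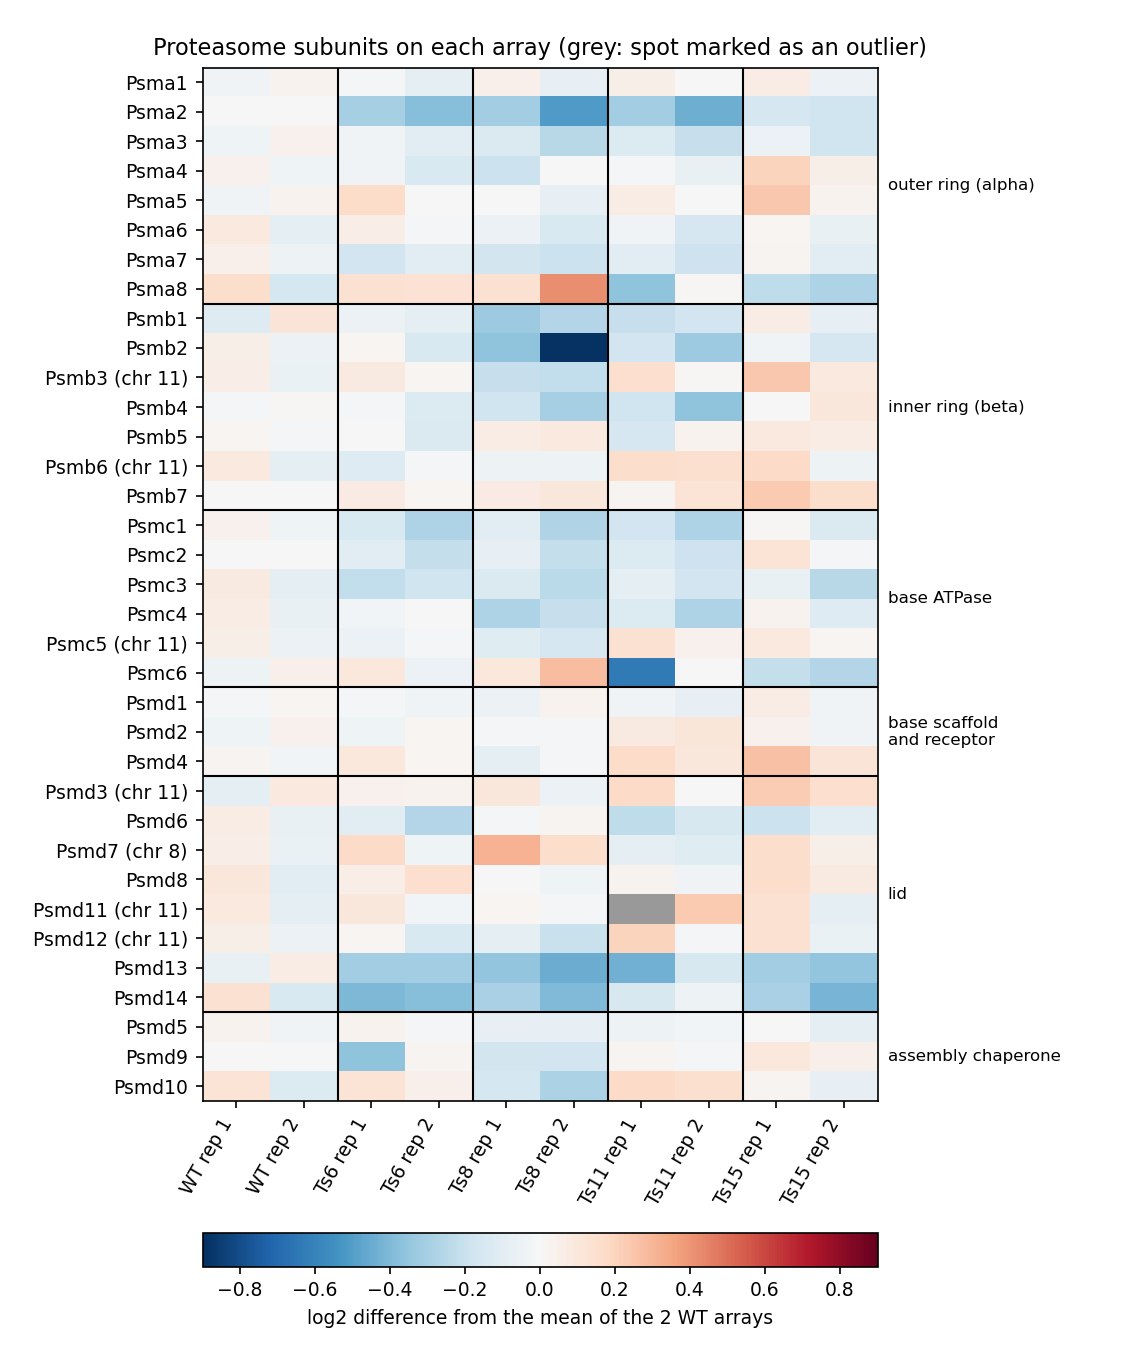
Log2 difference of 35 subunits (vertical axis, ordered by role) from the mean of the 2 WT arrays on each of the 10 arrays (horizontal axis), with blue below and red above WT and 1 grey cell for the spot marked as an outlier. Psma2 and Psmd13 are blue on all 8 arrays of the trisomic lines, and the darkest cell is Psmb2 on Ts8 replicate 2.

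In the outer ring, which gates the entry to the core, Psma2 stood lowest against WT in Ts6, Ts8 and Ts11, and Psma8 in Ts15 (-0.26). Log2 signals of Psma2 were 4.23 and 4.23 for WT, 3.93 and 3.85 for Ts6, 3.92 and 3.72 for Ts8, 3.92 and 3.79 for Ts11, and 4.08 and 4.05 for Ts15. All 8 arrays of the lines thus lay below both WT arrays, as they did for 2 of 34 subunits and 4.17% of all genes; the Ts15 arrays were the nearest to WT. Its difference from WT was -0.34 ± 0.11 (SE) for Ts6, -0.42 ± 0.11 for Ts8, -0.38 ± 0.11 for Ts11 and -0.17 ± 0.11 for Ts15, with adjusted p of 0.1, 0.075, 0.079 and 0.39 (limma). For the mean of the 4 lines it was -0.33 ± 0.09 (adjusted p = 0.08). With normexp background correction Psma2 passed the threshold in Ts11 (-0.43, adjusted p = 0.045; 0.045 to 0.26 over 17 alternatives) and for the mean of the lines (-0.38, adjusted p = 0.043). The median of the ring's 8 genes was -0.05 for Ts6, -0.1 for Ts8, -0.12 for Ts11 and -0.03 for Ts15.

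Psma8, the testis-specific alpha subunit, was well above background on all 10 arrays. Log2 signals were -0.5 and -0.82 for WT, -0.52 and -0.53 for Ts6, -0.52 and -0.24 for Ts8, -1.02 and -0.65 for Ts11, and -0.89 and -0.94 for Ts15. Ts8 replicate 2 was the highest and Ts11 replicate 1 the lowest, and only the Ts15 arrays lay wholly below WT. Its difference from WT was the highest of all subunits in Ts8 (0.28, adjusted p = 0.34) and in Ts6 (0.13, adjusted p = 0.69), neither past the threshold, and in Ts6 it was -0.03 without WT replicate 2.

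In the inner ring, the noncatalytic subunit Psmb2 had the largest difference of the whole complex. The log2 signal was 4.27 and 4.17 for WT, 4.24 and 4.08 for Ts6, 3.86 and 3.33 for Ts8, 4.05 and 3.89 for Ts11, and 4.19 and 4.07 for Ts15. Both Ts8 arrays lay below every other array, and the 2 Ts8 replicates were far apart. The difference of Ts8 from WT was -0.63 ± 0.18 (SE; 95% interval -1.04 to -0.22), and it did not pass the threshold (limma, adjusted p = 0.088). Psmb2 was the only subunit whose difference from WT, in Ts8, was larger than 0.58 in size, the log2 of 3/2. Without Ts8 replicate 1 the difference was -0.9 and passed (adjusted p = 0.027), and without Ts8 replicate 2 it was -0.36 (adjusted p = 0.34), the lowest and highest adjusted p over 17 alternatives.

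On the tested probes, the catalytic subunits Psmb5, Psmb6 and Psmb7 stayed within 0.19 of WT in all 4 lines; in the deposited table Psmb6 was 0.37 above WT in Ts11 (adjusted p = 0.052). Psmb7 had log2 signals of 3.36 and 3.37 for WT, 3.44 and 3.38 for Ts6, 3.44 and 3.47 for Ts8, 3.39 and 3.49 for Ts11, and 3.6 and 3.52 for Ts15. It was the only subunit with all 8 arrays of the lines above both WT arrays (4.73% of all genes), by a margin that was small in Ts6 replicate 2 and Ts11 replicate 1. Its difference from WT was 0.1 for the mean of the 4 lines (adjusted p = 0.48) and 0.19 ± 0.1 for Ts15 (adjusted p = 0.27), the latter the same size as those of Psmd3 and Psmd4. For Psmb5, whose catalytic site cleaves after hydrophobic residues, the tested and the second probe gave 0.08 and -0.19 for Ts8 and so disagreed in sign, and the second probe was at -0.21 in Ts6. The median of the 7 tested inner-ring genes was -0.06 for Ts6, -0.22 for Ts8, -0.06 for Ts11 and 0.06 for Ts15.

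Among the base ATPases, 5 of 6 had values below WT in Ts6, Ts8 and Ts11, and 4 of 6 had them in Ts15, with medians of -0.1, -0.16, -0.17 and -0.05. Psmc5, on chromosome 11, was the 1 above WT in Ts11, and Psmc6 the 1 above WT in Ts6 and in Ts8. The log2 signal of Psmc6 was 2.22 and 2.31 for WT, 2.36 and 2.21 for Ts6, 2.36 and 2.54 for Ts8, 1.63 and 2.27 for Ts11, and 2.05 and 2 for Ts15. Ts11 replicate 1 was the lowest array by a wide margin, and the other Ts11 array lay between the WT arrays. The lowest value of a subunit in Ts11 against the other 3 lines, -0.3 for Psmc6 (adjusted p = 0.31), rested on that array and was 0.02 without it.

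In the lid, Psmd13 and Psmd14 had lower values than WT in most lines. The log2 signal of Psmd13 was 2.22 and 2.35 for WT, 1.97 and 1.97 for Ts6, 1.93 and 1.84 for Ts8, 1.85 and 2.14 for Ts11, and 1.97 and 1.93 for Ts15. Like Psma2, it was below both WT arrays on all 8 arrays of the lines, although Ts11 replicate 2 came close to WT. Its difference from WT was -0.33 ± 0.1 (SE) for the mean of the 4 lines (limma, adjusted p = 0.097). Psmd14, the deubiquitinase of the lid, had log2 signals of 1.51 and 1.24 for WT, 0.97 and 0.99 for Ts6, 1.08 and 0.98 for Ts8, 1.23 and 1.33 for Ts11, and 1.08 and 0.96 for Ts15. Its WT replicates differed by more than those of most subunits, and Ts11 overlapped WT while the other 3 lines lay below. It had the lowest difference of all subunits in Ts6 (-0.4 ± 0.12, adjusted p = 0.089) and in Ts15 (-0.36 ± 0.12, adjusted p = 0.12). Without WT replicate 1 these were -0.26 and -0.22. The medians of the 7 tested lid genes were -0.06, -0.02, -0.1 and 0.04 for Ts6, Ts8, Ts11 and Ts15, with values on both sides of 0 in each line.

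The base scaffold subunits Psmd1 and Psmd2 and the ubiquitin receptor Psmd4 stayed within 0.05 of WT in Ts6 and Ts8. Psmd4 had values of 0.13 for Ts11 and 0.19 for Ts15 (adjusted p = 0.31 for Ts15). Of the chaperones Psmd5, Psmd9 and Psmd10, all 3 had values below WT in Ts8 (-0.08, -0.17 and -0.22). Psmd10, known also as gankyrin, had the highest difference of a subunit in Ts11 (0.16, adjusted p = 0.45). Of the 8 members with 2 probes, the number whose probes differed in sign was 2 for Ts6, 1 for Ts8, 1 for Ts11 and 6 for Ts15, with gaps of at most 0.27.

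**Figure D2:**
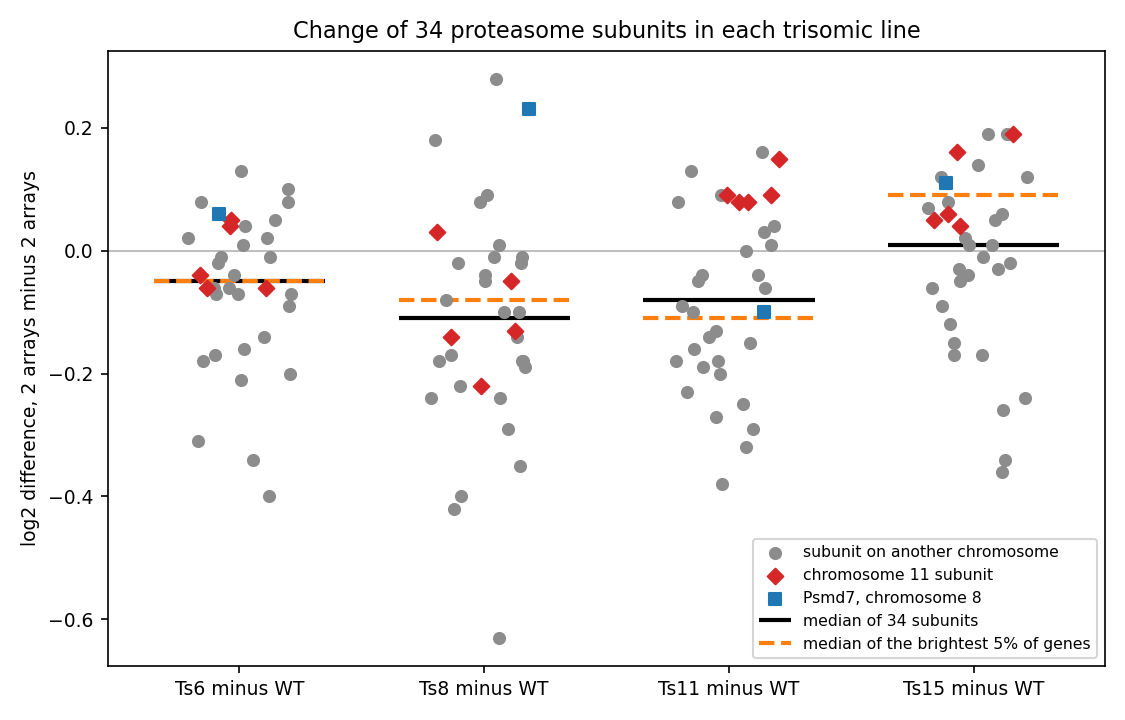
Log2 difference from WT (vertical axis) of each of the 34 tested subunits in the 4 trisomic lines (horizontal axis), with the median of the subunits and of the brightest 5% of genes as lines. The red chromosome 11 subunits all lie above 0 in Ts11 and in Ts15, and Psmd7, in blue, is the second highest point in Ts8.

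The chromosome 11 subunits were next set against the rest of the complex in Ts11. Psmb6, the catalytic subunit that cleaves after acidic residues, had log2 signals of 4.54 and 4.37 for WT, 4.34 and 4.44 for Ts6, 4.41 and 4.41 for Ts8, 4.61 and 4.6 for Ts11, and 4.63 and 4.41 for Ts15. Both Ts11 arrays lay above both WT arrays, but Ts15 replicate 1 was higher still. Psmc5, a base ATPase, had log2 signals of 3.49 and 3.39 for WT, 3.39 and 3.42 for Ts6, 3.33 and 3.29 for Ts8, 3.58 and 3.48 for Ts11, and 3.53 and 3.46 for Ts15. Its Ts11 and WT arrays overlapped. Psmb3, a noncatalytic inner-ring subunit, had log2 signals of 4.08 and 3.96 for WT, 4.1 and 4.04 for Ts6, 3.81 and 3.8 for Ts8, 4.17 and 4.03 for Ts11, and 4.26 and 4.11 for Ts15. Ts11 overlapped WT here too, and the Ts8 arrays were the lowest.

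The lid subunits on chromosome 11 were alike in this. Psmd3 had log2 signals of 4.13 and 4.31 for WT, 4.26 and 4.25 for Ts6, 4.32 and 4.17 for Ts8, 4.39 and 4.22 for Ts11, and 4.45 and 4.37 for Ts15. Psmd12 had log2 signals of 3.88 and 3.78 for WT, 3.85 and 3.69 for Ts6, 3.74 and 3.63 for Ts8, 4.03 and 3.81 for Ts11, and 3.97 and 3.77 for Ts15, and for both genes Ts11 overlapped WT. The dimmer Psmd12 probe, the one across an intron, had 2.97 and 3.01 for WT, 2.78 and 2.76 for Ts6, 2.66 and 2.66 for Ts8, 3.19 and 3.1 for Ts11, and 2.78 and 2.73 for Ts15. On that probe both Ts11 arrays were above all 8 other arrays, which the tested, brighter probe of the same gene did not show. Psmd11 had log2 signals of 4.01 and 3.84 for WT, 4.03 and 3.9 for Ts6, 3.94 and 3.91 for Ts8, 4.16 for Ts11 replicate 2, and 4.06 and 3.84 for Ts15, while the spot left out on Ts11 replicate 1 read 3.82. With that spot kept the difference of Ts11 from WT was 0.07 ± 0.15 (SE; adjusted p = 0.81).

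The differences of Ts11 from WT were 0.15 (95% interval -0.12 to 0.42) for Psmb6, 0.09 (-0.14 to 0.31) for Psmc5, 0.08 (-0.17 to 0.33) for Psmb3, 0.08 (-0.19 to 0.36) for Psmd3 and 0.09 (-0.21 to 0.39) for Psmd12, with adjusted p between 0.47 and 0.7 (limma). All 5 values were above 0 and each interval included 0 and ended below 0.58, the log2 of 3/2. Their median was 0.09, against -0.1 for the other 29 subunits, of which 7 were above 0. Over all 1996 tested genes of chromosome 11 the median was 0.18, and over the 107 of them among the brightest 5% it was -0.05, beside -0.12 for the brightest 5% of genes on the autosomes trisomic in no line. Among all chromosome 11 genes 48.5% had both Ts11 arrays above both WT arrays; of the 5 subunits 1 did, Psmb6. Both Ts11 arrays were above all 8 other arrays for Psmd2 and Psmd10, neither on chromosome 11, among the 34 subunits and for 5.92% of all genes.

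The gap between the chromosome 11 subunits and the rest was not found in Ts11 alone. By array, as the median difference from the WT mean, it was 0.03 and -0.03 for WT, 0.03 and 0.07 for Ts6, 0 and 0 for Ts8, 0.25 and 0.09 for Ts11, and 0.15 and 0.09 for Ts15. Ts11 replicate 1 had the widest gap, and Ts11 replicate 2 had the same gap as Ts15 replicate 2. Without Ts11 replicate 1 the gap in Ts11 was 0.09, the median of the chromosome 11 subunits 0.01, Psmd3 0 and Psmd12 -0.02; without WT replicate 1 Psmd3 was -0.01. With passage as a covariate Psmd12 and Psmb3 were at -0.18 and -0.06. In Ts15, all 5 chromosome 11 subunits also had values above WT on their tested probes (median 0.06, against -0.02 for the other 29), but the second Psmd12 probe was at -0.23 in Ts15 and 0.15 in Ts11.

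Psmd7, a lid subunit and the scaffold partner of Psmd14, was the only member on chromosome 8. The log2 signal was 3.81 and 3.69 for WT, 3.92 and 3.71 for Ts6, 4.06 and 3.91 for Ts8, 3.67 and 3.64 for Ts11, and 3.91 and 3.8 for Ts15. Both Ts8 arrays were above both WT arrays, while Ts6 replicate 1 and Ts15 replicate 1 reached the level of the lower Ts8 array. The difference of Ts8 from WT was 0.23 ± 0.12 (SE; 95% interval -0.04 to 0.51; limma, adjusted p = 0.26), the second highest of the 34 subunits in that line. With passage as a covariate it was 0.03 (adjusted p = 0.91). The median of the 1498 tested chromosome 8 genes was 0.26, and that of the 75 among the brightest 5% was 0. Of all chromosome 8 genes, 33.1% had both Ts8 arrays above the other 8 arrays (8.76% of all genes); no subunit did.

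Each line was also set against the other 3 lines, a comparison in which WT does not enter. Line and trisomy cannot be told apart in it, and its SE and p rest on the spread between passages of a line, not between lines. No subunit was called by limma in any of these, whereas 13.3% of all genes were called for Ts6, 12.9% for Ts8, 7.53% for Ts11 and 19.2% for Ts15. At an unadjusted p under 0.05 there were 0, 4, 2 and 4 subunits, or 0%, 11.8%, 5.88% and 11.8% of them, beside 30%, 31%, 24.4% and 36.1% of all genes. The medians of the 34 subunits were -0.02, -0.08, -0.02 and 0.08; that of Ts11 was 0.1 with the deposited table, and that of Ts15 was -0.06 with the deposited table and with quantile normalization and -0.07 when scaled to the brightest 5% of genes. Beside them, those of the brightest 5% of genes were -0.02, -0.07, -0.1 and 0.17. In Ts15, 26 of 34 subunits had values above the other lines (76.5%, with 94.8% of the brightest 5% and 49.4% of all genes). The 5 chromosome 11 subunits had a median of 0.12 for Ts11 (0 for Psmd3 to 0.17 for Psmb6), against -0.04 for the other 29, and all chromosome 11 genes 0.2. Psmd7 was 0.21 higher in Ts8 than in the other lines (adjusted p = 0.19) and in Ts11 it stood at -0.23 (adjusted p = 0.19), neither past the threshold.

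The smallest adjusted p of these comparisons was that of Psmb3 in Ts8, at 0.056, with a difference of -0.31 ± 0.09 (SE). Psmb2 followed in Ts8 with -0.49 ± 0.14 (limma, adjusted p = 0.064). Psmb3 passed the threshold in Ts8 with the deposited table, quantile normalization, scaling over detected probes and other scalings, with differences of -0.27 to -0.34. With the replicate block both passed, at the same differences (adjusted p = 0.041 for Psmb3 and 0.033 for Psmb2). Psmb2 also passed without Ts8 replicate 1 (-0.76, adjusted p = 0.019), and without Ts8 replicate 2 it was -0.22 (0.45), the ends of its range over 21 alternatives. Without Ts11 replicate 2 Psmc6 passed in Ts8 (0.47, adjusted p = 0.034). The lowest and highest subunits were Psmd9 (-0.14) and Psmb2 (0.26) in Ts6, Psmb2 (-0.49) and Psma8 (0.38) in Ts8, Psmc6 (-0.3) and Psmd14 (0.27) in Ts11, and Psma8 (-0.34) and Psmb4 (0.24) in Ts15. In Ts6 Psmd9 was 0.05 without Ts6 replicate 1.

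**Figure D3:**
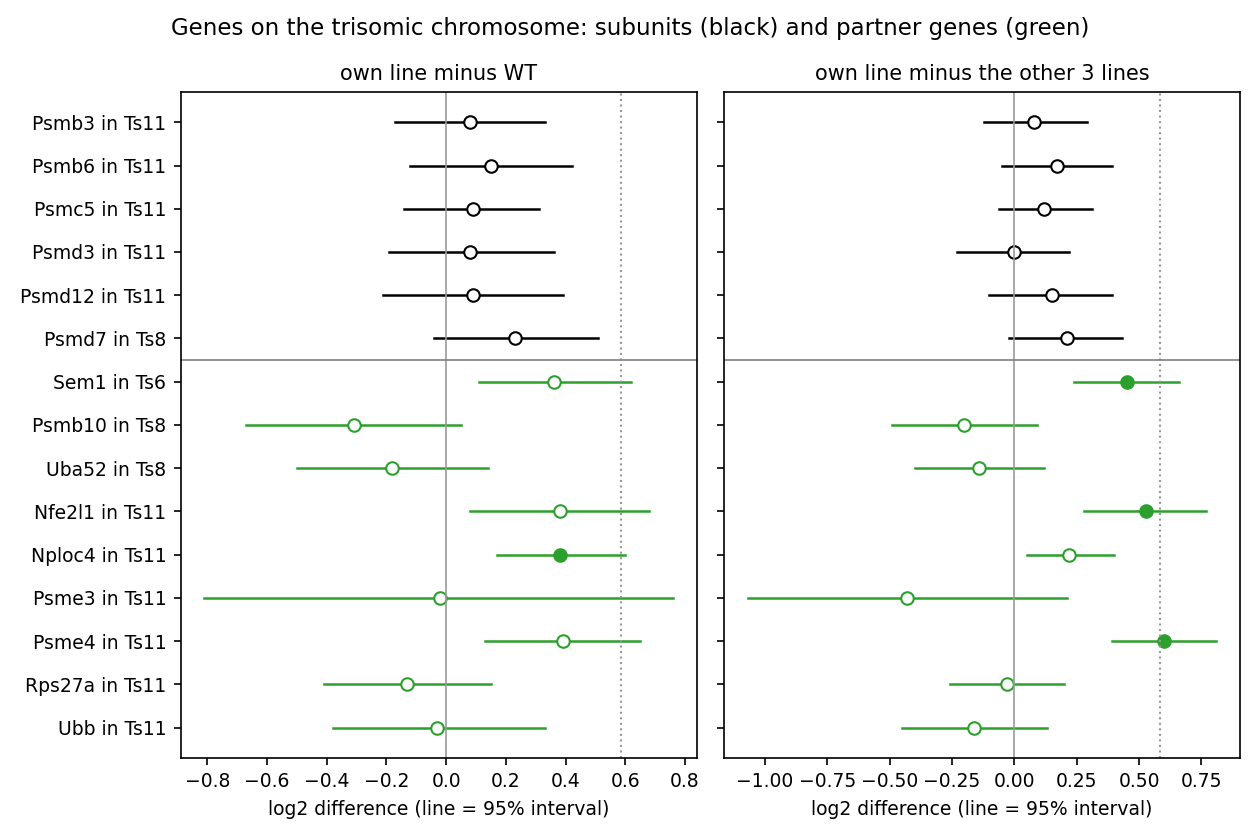
Log2 differences with 95% intervals (horizontal axis) of genes on a trisomic chromosome in the line trisomic for it, against WT (left) and against the other 3 lines (right); black marks 6 subunits, green 9 partner genes, filled symbols an adjusted p under 0.05, and the dotted line log2 of 3/2. The intervals of the 6 subunits end below the dotted line in both panels, and the filled symbols are Nploc4 on the left and Sem1, Nfe2l1 and Psme4 on the right.

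Partner genes of the proteasome, 39 genes in 6 lists, were read in the same fit, and 38 were tested. Against WT, 0 of 38 were called for Ts6, 1 for Ts8, 2 for Ts11 and 1 for Ts15; against the other 3 lines 2 were called for Ts6, 3 for Ts8, 2 for Ts11 and 1 for Ts15. As shares of the 38 these were 0%, 2.63%, 5.26% and 2.63% against WT and 5.26%, 7.89%, 5.26% and 2.63% against the other lines, each below the share of all genes called in that comparison given above. Of the 5 tested assembly chaperones outside the members and the 6 genes of ubiquitin supply and activation, none was called in any comparison. Of the 38, 9 lay on a chromosome trisomic in a line, and 4 of these were called higher in their own line in at least 1 of the comparisons (44.4%), beside 25.9% of the 6055 tested genes on chromosomes 6, 8, 11 and 15.

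Sem1, the smallest subunit of the lid and a proteasome subunit that the naming rule does not take in, is encoded on chromosome 6. Log2 signals were 4.11 and 3.89 for WT, 4.39 and 4.33 for Ts6, 3.84 and 3.85 for Ts8, 3.9 and 3.82 for Ts11, and 4.08 and 3.99 for Ts15. Both Ts6 arrays were above all 8 others. Ts6 was 0.45 ± 0.09 (SE) above the other lines (limma, adjusted p = 0.018) and 0.36 ± 0.11 above WT (adjusted p = 0.085). Over 20 alternatives the difference of Ts6 from the other lines ran from 0.41 to 0.49, and the call held in 18. It was lost without Ts6 replicate 1 or 2, where the differences were 0.42 and 0.48.

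Nfe2l1, the transcription factor that drives subunit genes, lies on chromosome 11. The log2 signal was -0.75 and -0.72 for WT, -0.73 and -0.72 for Ts6, -1.17 and -0.96 for Ts8, -0.51 and -0.21 for Ts11, and -0.86 and -0.87 for Ts15. The Ts11 arrays were the highest and the Ts8 arrays the lowest, with no overlap with the other groups. Ts11 was 0.53 ± 0.1 (SE) above the other lines (limma, adjusted p = 0.027) and Ts8 was below them (-0.41, adjusted p = 0.041), and against WT neither passed (0.38 with adjusted p = 0.12 and -0.33 with 0.17). The call in Ts11 was lost without Ts6 replicate 1 (0.065) or 2 (0.064), Ts11 replicate 2 (0.16) and Ts15 replicate 1 (0.06) or 2 (0.061), and with normexp background correction (0.071), no filter on dim probes (0.052), passage as a covariate (0.05) and slide 1 alone (0.066), over a range of 0.018 to 0.16 in 21 alternatives. That in Ts8 was lost without Ts6 replicate 1 (0.085) or 2 (0.083), Ts8 replicate 1 (0.17) or 2 (0.12), Ts11 replicate 2 (0.054) and Ts15 replicate 1 (0.079) or 2 (0.079), and with normexp (0.066), no filter (0.069), only the arrays compared (0.059), passage (0.053) and scaling to the brightest 5% of genes (0.098), over a range of 0.03 to 0.17 in 21 alternatives. Against the other lines, the difference of Nfe2l1 ran from 0.38 to 0.68 in Ts11 and from -0.52 to -0.31 in Ts8 over these alternatives. In Ts11 it stayed at 0.53 when a single Ts6 or Ts15 array was left out. In Ts11 against WT, the subunits off chromosome 11 had a median of -0.1, beside -0.12 for the brightest 5% of genes on the autosomes trisomic in no line. Against the other lines these medians were -0.04 and -0.1. Whether the subunit levels are related to the level of Nfe2l1 was not tested. The mRNA level of Nfe2l1 does not measure its activity, which is known to depend on processing of the protein.

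Psme4, an activator that caps the core in place of the regulatory particle, also lies on chromosome 11. The log2 signal was 0.98 and 0.9 for WT, 0.9 and 0.83 for Ts6, 0.96 and 0.86 for Ts8, 1.43 and 1.23 for Ts11, and 0.47 and 0.37 for Ts15. Ts11 was above and Ts15 below all other groups, while WT, Ts6 and Ts8 overlapped. Against the other lines Psme4 was 0.6 ± 0.09 (SE) higher in Ts11 (limma, adjusted p = 0.012) and lower in Ts15 (-0.61, adjusted p = 0.0048), and it was lower than WT in Ts15 (-0.52, adjusted p = 0.035). The low Ts15 arrays are part of the reference for Ts11, and the high Ts11 arrays of that for Ts15. On slide 1 alone, without Ts15, the difference of Ts11 from the other lines was 0.44. Psme4 in Ts11 was 0.39 ± 0.11 above WT, which did not pass the threshold (limma, adjusted p = 0.078). The first call was lost without Ts11 replicate 1 (0.082) and on slide 1 alone (0.07; 0.0053 to 0.082 over 21 alternatives) and the second without Ts15 replicate 2 (0.057; 0.00088 to 0.057 over 20 alternatives). The call against WT was lost without WT replicate 1 (0.11) or 2 (0.1) and without Ts15 replicate 1 (0.11) or 2 (0.15), and with no filter (0.061), only the arrays compared (0.094) and passage (0.087), and with all probes of the gene averaged it was -0.31 (0.12), over a range of 0.011 to 0.15 in 16 alternatives. Nploc4, a cofactor of the segregase Vcp on chromosome 11, was 2.29 and 2.33 for WT and 2.7 and 2.68 for Ts11, with the other arrays from 2.4 to 2.56. Every array of the trisomic lines thus lay above both WT arrays. Against the other lines Nploc4 was 0.22 higher in Ts11, which did not pass the threshold (limma, adjusted p = 0.12). It was higher in Ts11 than in WT (0.38, adjusted p = 0.048), and the call was lost without WT replicate 1 (0.14) or 2 (0.13) and without Ts11 replicate 1 (0.14) or 2 (0.14), with the replicate block (0.051), normexp (0.063), no filter (0.077), only the arrays compared (0.2) and passage (0.38), and on slide 1 alone (0.079), over a range of 0.019 to 0.38 in 17 alternatives.

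**Figure D4:**
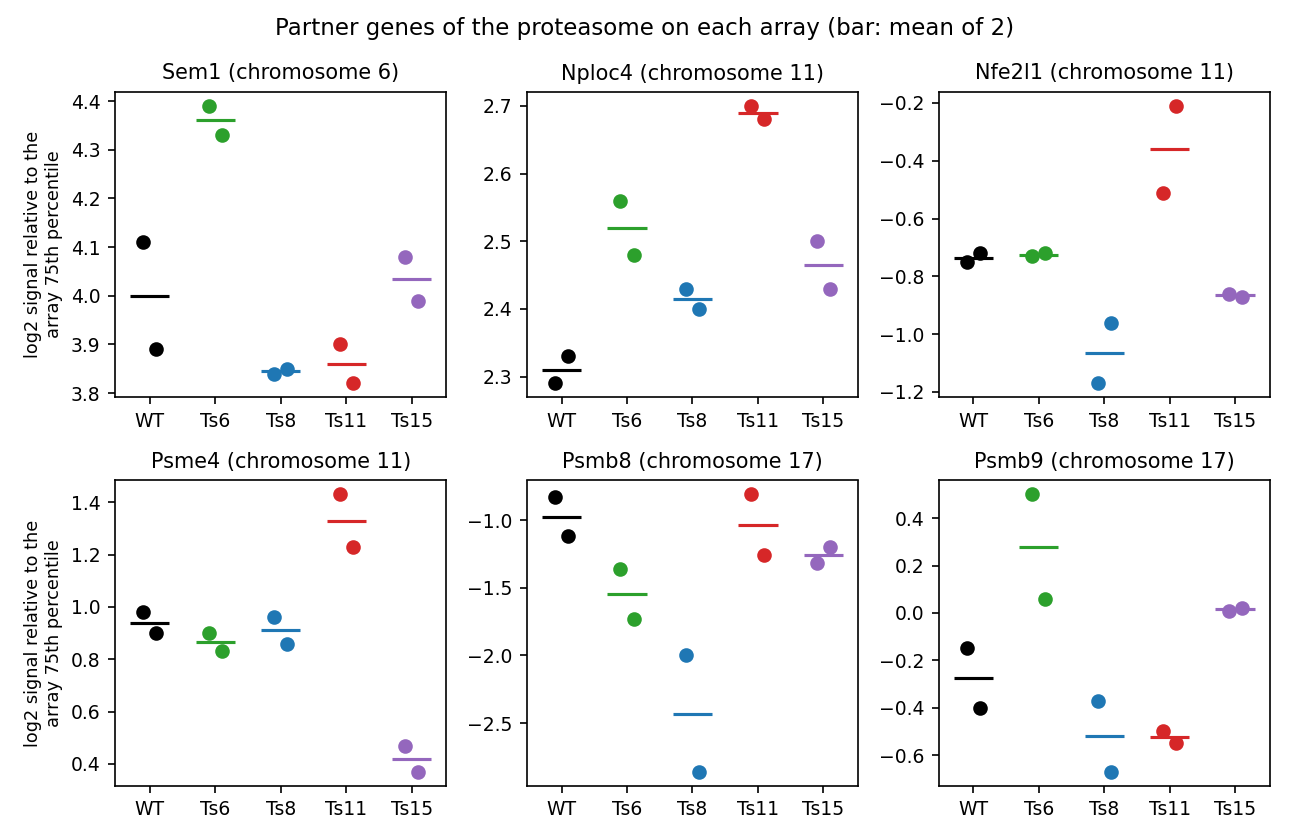
Log2 signal relative to the 75th percentile of the array (vertical axis, its own range for each gene) of 6 partner genes on the 2 arrays of each group (horizontal axis), with bars at the group means. Sem1 is highest in Ts6, Nploc4, Nfe2l1 and Psme4 are highest in Ts11, and Psmb8 is lowest in Ts8.

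Of the 3 immunoproteasome subunits, catalytic beta subunits that replace those of the core after interferon, Psmb8 was called in Ts8 and Psmb9 in Ts6. Psmb8, which replaces Psmb5, had log2 signals of -0.83 and -1.12 for WT, -1.36 and -1.73 for Ts6, -2 and -2.86 for Ts8, -0.81 and -1.26 for Ts11, and -1.32 and -1.2 for Ts15. Both Ts8 arrays were the lowest, at a distance from each other larger than in any other group. It was lower in Ts8 than in WT (-1.46, limma, adjusted p = 0.044) and than in the other lines (-1.15, adjusted p = 0.022). The first call was lost without WT replicate 1 (0.13) or 2 (0.11) and without Ts8 replicate 2 (-1.03, 0.17), with no filter (0.082), only the arrays compared (0.19) and passage (0.13), and on slide 1 alone (0.078), over a range of 0.013 to 0.19 in 17 alternatives. The second was lost without Ts6 replicate 1 (0.052), Ts8 replicate 2 (-0.72, 0.17) and Ts15 replicate 2 (0.05) and on slide 1 alone (0.051), over a range of 0.0056 to 0.17 in 21 alternatives. Psmb9, which replaces Psmb6, had log2 signals of -0.15 and -0.4 for WT, 0.5 and 0.06 for Ts6, -0.37 and -0.67 for Ts8, -0.5 and -0.55 for Ts11, and 0.01 and 0.02 for Ts15. The Ts6 arrays were the highest, though far apart, and Ts6 was above the other lines (0.62, adjusted p = 0.028). That call was lost without Ts6 replicate 1 (0.41, 0.27), Ts11 replicate 1 (0.05) or 2 (0.054) and Ts15 replicate 1 (0.058) or 2 (0.058) and with no filter (0.05), over a range of 0.0092 to 0.27 in 20 alternatives. Psmb10, on chromosome 8, was not called in Ts8 (-0.31 against WT, adjusted p = 0.26).

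Psmf1, an inhibitor of the core particle, was called lower in Ts8 than in the other lines (-0.45, limma, adjusted p = 0.026). Log2 signals were 1.23 and 1.12 for WT, 1.44 and 1.36 for Ts6, 1.08 and 0.9 for Ts8, 1.46 and 1.25 for Ts11, and 1.59 and 1.54 for Ts15, so that the Ts8 arrays were the lowest. The call was lost without Ts6 replicate 1 (0.063) or 2 (0.052), Ts8 replicate 2 (0.21) and Ts15 replicate 1 (0.056) or 2 (0.053), with normexp (0.079) and on slide 1 alone (0.088), over a range of 0.018 to 0.21 in 21 alternatives. Sel1l, an adaptor of the ubiquitin ligase that clears misfolded proteins from the endoplasmic reticulum, was higher in Ts11 than in WT (0.76, adjusted p = 0.024). Log2 signals were -0.43 and -0.73 for WT, -0.39 and -0.05 for Ts6, -0.34 and -0.41 for Ts8, 0.21 and 0.16 for Ts11, and -0.33 and -0.31 for Ts15, with both Ts11 arrays above all others. That call was lost without WT replicate 2 (0.1) and without Ts11 replicate 1 (0.088) or 2 (0.082), with only the arrays compared (0.1) and with passage (0.17), over a range of 0.012 to 0.17 in 17 alternatives.

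The level of the complex as a whole was also read from array to array. The median difference of the 34 subunits from the WT mean was 0.04 and -0.04 for WT, -0.01 and -0.05 for Ts6, -0.09 and -0.15 for Ts8, -0.07 and -0.04 for Ts11, and 0.05 and -0.06 for Ts15. The brightest 5% of genes had 0.04 and -0.04, -0.02 and -0.08, -0.08 and -0.09, -0.06 and -0.17, and 0.17 and 0.01 in the same order. Ts8 replicate 2 had the lowest subunit median, and Ts15 replicate 1 the highest in both sets. Within a group, the median of the gene-by-gene differences of replicate 2 from replicate 1 was below 0 in 5 of 5 groups for the subunits (-0.04 to -0.11) and for the brightest 5% of genes (-0.01 to -0.16), beside 0 to -0.07 for all genes. Replicate 2 was the later passage and in slide row 2 in each group, which cannot be told apart. The median SD between replicates was 0.05 to 0.08 for the subunits and 0.09 to 0.13 for all genes.

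**Figure D5:**
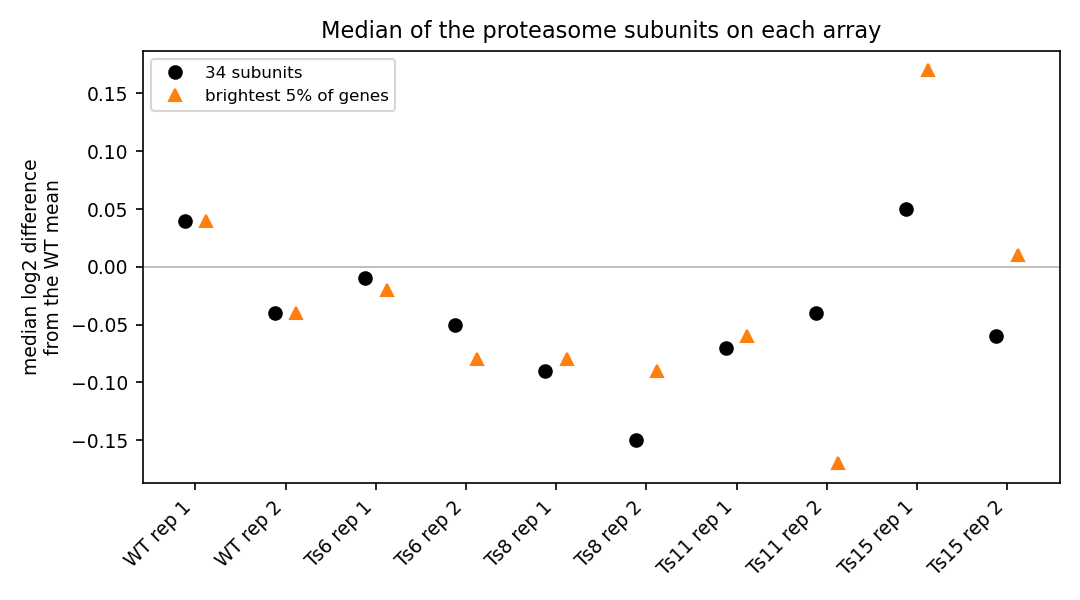
Median log2 difference from the WT mean (vertical axis) of the 34 subunits (circles) and of the brightest 5% of genes (triangles) on each of the 10 arrays (horizontal axis). The subunit medians lie between -0.15 and 0.05.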

How the data were processed

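RNA of 10 samples (5 groups of 2) was measured on 1-colour Agilent mouse arrays. Per the file headers, Agilent Feature Extraction 10.7.3.1 gave the deposited intensity values, without background correction, and the probes were placed on mm9. The authors' deposited series table holds log2 values whose centring is not given in the sources used here, so it served only as an alternative. Depth has no meaning for arrays, and the number of arrays limits the precision.

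From the intensities, the log2 processed signal was taken and the 75th percentile of its array subtracted, replicate spots were averaged without spots marked as outliers, and 176 of 55681 probes with no spot left on some array were dropped. Probes were kept if 1 group or more had both arrays well above background (43055). Names were updated by RefSeq accession (26762 of 28390 matched, 2878 changed). The brightest probe stood for its gene (28192 genes). limma 3.58.1 in R 4.3.3 fitted 1 mean per group (5 residual and 2.67 prior degrees of freedom), two-sided, with Benjamini-Hochberg adjustment over all genes. Intervals are 95% and unadjusted.

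The script was tested on simulated data. The members and lists were chosen with earlier results of these data known. Named were each subunit in the line trisomic for its chromosome, every called subunit or else the highest and lowest of a comparison, and every called partner gene; Psmb7, Psmc6, Psmd4, Psmd13 and others outside this were named after their values were seen. Alternatives were another background correction, quantile normalization, 3 other scalings, the deposited table, no filter, all probes, fewer arrays, passage, the replicate block and each replicate left out. Figures used Python with matplotlib. The replicate numbers were not taken to pair the samples. A gene of the partner lists is not reported here, and counts leave it out.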

Additional observations from a re-analysis of the deposited data

Results flagged for a closer look

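No subunit of the set differed between a line and the other 3 lines by the limma test of that difference. Among the partner genes 8 differences passed it. Sem1 (0.45) and Psmb9 (0.62) were higher in Ts6 than in the other lines. In Ts8 Psmb8 (-1.15), Psmf1 (-0.45) and Nfe2l1 (-0.41) were lower. In Ts11 Psme4 (0.6) and Nfe2l1 (0.53) were higher, and in Ts15 Psme4 was lower (-0.61). Of the 4 that were higher, Sem1, Psme4 and Nfe2l1 were on the chromosome trisomic in that line, and Psmb9 was not. Each of the 8 calls was lost without at least 1 array. A fit with an array left out also has fewer arrays to estimate the spread, so a lost call need not mean a smaller difference.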

How the results depend on the processing

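Over 16 to 21 alternatives per comparison, no subunit was called in Ts6 or Ts15 against WT or in Ts6 against the other lines under any setting. With normexp background correction 1 subunit was called in Ts11 and 1 in the mean of the 4 lines against WT, both Psma2. In Ts8 against the other lines 1 subunit was called with quantile normalization, scaling over detected probes, the deposited table and scaling to the brightest 5% of genes, and 2 when scaled to the 15 autosomes trisomic in no line. With the authors' deposited values 1 was called in Ts11 against the other lines (Psmb6, 0.35) and 1 by the F test, the median of the chromosome 11 subunits in Ts11 was 0.21, and the subunit median was 0.05 in Ts11 against WT and 0.1 and -0.06 in Ts11 and Ts15 against the other lines. Scaling to the brightest 5% of genes, chosen after seeing the data, called 1 subunit in Ts15 against the other lines (Psma8, -0.5) and gave medians of 0.02 in Ts11 against WT and -0.07 in Ts15 against the other lines; with quantile normalization the latter was -0.06. With passage as a covariate the subunit median in Ts11 against WT was -0.16. Leaving out single arrays gave 0 to 1 called subunits in Ts8 against WT (1 without Ts8 replicate 1), 0 to 1 in Ts8 against the other lines and 0 to 1 by the F test (1 without Ts8 replicate 1 or Ts11 replicate 2). The cause of these changes was not tested.

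Directions that reversed were all of uncalled subunits. Psmd3 in Ts11 against the other lines, at 0, was 0.09 with quantile normalization, 0.01 scaled to the 15 autosomes, 0.02 scaled over detected probes, 0.15 in the deposited table, 0.09 scaled to the brightest 5% and 0.05 on slide 1 alone, and -0.09 to 0.09 without single arrays. With passage as a covariate Psmd12, Psmb3 and Psmd10 in Ts11 against WT were at -0.18, -0.06 and -0.01. Without single arrays, Psmd3 ran from -0.01 to 0.18 and Psmd12 from -0.02 to 0.2 in Ts11 against WT, Psma8 from -0.03 to 0.29 in Ts6 against WT, Psmd9 from -0.33 to 0.05 in Ts6 and Psmc6 from -0.63 to 0.02 in Ts11 against the other lines.

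The replicate numbers share slide row and order of passage, and they were not taken as pairs in the main fit. Of 10 pairs of groups 2 had deviations that correlated above 0.1 (-0.1 to 0.39), and 8 of 10 arrays correlated best with an array of their own number. With so few arrays per group these values do not settle whether the numbers pair the samples. With the replicate block 2 subunits were called in Ts8 against the other lines, Psmb2 and Psmb3, and none in the other 8 comparisons.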
